A study of Mus musculus with 18 samples.

Results

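The 9 genes described here, *Slc4a1*, *Hba-a1*, *Hba-a2*, *Hbb-bs*, *Hbb-bt*, *Epb42*, *Klf1*, *Ermap* and *Tfrc*, are genes of the red blood cell lineage read in mouse liver, out of 51826 genes in the liver count table. They were picked by name, after *Slc4a1* had been seen to be higher in RepB-/- than in WT livers among the libraries numbered 2 and 3, so that difference chose them. Every genotype difference in liver given for them is therefore a description, and none of it counts as a test. RNA was sequenced from 3 RepB-/- and 3 WT livers and, separately, from 3 RepB-/- and 3 WT cultures of mouse embryonic fibroblasts (MEFs). RepB-/- mice are homozygous for a deletion of repeat B, a cytosine-rich tandem repeat of the X-linked long noncoding RNA *Xist*, which was made by CRISPR/Cas9 in zygotes and passed on by breeding. The study's methods name purchased ICR females, but they do not say from which strain the zygotes came. WT samples carry the intact gene. The labels give neither age nor sex of the animals, and they do not say whether libraries of one genotype came from separate animals, so any error given here measures the spread between libraries, which may be technical.

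Red blood cells are made from committed progenitors that come to fill themselves with hemoglobin, a tetramer of alpha and beta globin chains around heme. The process runs in the fetal liver before it moves to bone marrow and spleen, and the adult liver holds mainly circulating cells, including reticulocytes, which have lost their nucleus but still carry globin mRNA. Maturing erythroid cells take up transferrin-bound iron through the transferrin receptor, build a membrane skeleton anchored on band 3, and depend on the transcription factors GATA1 and KLF1. Hepatocytes answer to the demand for iron by changing hepcidin, the hormone that closes the iron exporter ferroportin.

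*Hba-a1* (chr11:32283511-32284465, plus strand) and *Hba-a2* (chr11:32296489-32297298, plus strand) encode the adult alpha chain, and *Hbb-bs* (chr7:103826534-103828096, minus strand) and *Hbb-bt* (chr7:103812524-103813996, minus strand) the adult beta chain. All positions are the GRCm38 gene bounds of the deposited liver table. The 429 coding bases of *Hba-a1* and *Hba-a2* in the GENCODE transcripts differ at 1 position (C381T, counted from the first base of the start codon, *Hba-a1* base first), and the 444 coding bases of *Hbb-bs* and *Hbb-bt* differ at 1 position (C417T, *Hbb-bs* base first). Of all windows of 150 coding bases, the read length of the study's methods, 82.5% are identical in the alpha pair and 90.5% in the beta pair. The windows leave out paired mates and untranslated bases, so they do not give the share of read pairs that match both copies. These stretches are shown because they hold the coding base that tells the copies apart, and the capital is that base.
Hba-a1: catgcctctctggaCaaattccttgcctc
Hba-a2: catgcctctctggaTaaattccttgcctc
Hbb-bs: gtggctggagtggcCgctgccctggctca
Hbb-bt: gtggctggagtggcTgctgccctggctca
How reads matching both copies were counted is not given in the sources used here, so the split within each pair is uncertain. The sum over a pair does not depend on how such reads were divided, but it does depend on whether they were kept or dropped.

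*Slc4a1* (chr11:102348824-102366203, minus strand) encodes band 3, the chloride and bicarbonate exchanger of the red cell membrane. *Epb42* (chr2:121017891-121037072, minus strand) encodes protein 4.2, which binds band 3 to the skeleton, and *Ermap* (chr4:119175457-119190011, minus strand) an erythroid surface protein of the immunoglobulin superfamily. *Klf1* (chr8:84901928-84905291, plus strand) encodes the erythroid zinc finger factor that switches on beta globin, and *Tfrc* (chr16:32608920-32632794, plus strand) the transferrin receptor, which most dividing cells also carry.

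RefSeq promoter sequences of GRCm38.p6 were found for 8 of the 9 members, and the 250 bases before each start were searched on both strands for AGATAA and TGATAA, the 6-letter forms of the site that GATA factors bind. A match was present in 6 of the 8 members and in 16.6% of all 32851 promoters. The windows below are printed on the strand that reads the motif, with its letters in capitals, to show how alike or unlike these matches are.
Hba-a1: gtccgggcaacTGATAAggattccctgc
Hba-a2: gtccgggcaacTGATAAggattccctgc
Hbb-bs: gttctctgcacAGATAAggacaaacatt
Epb42: ctgtttgaacgAGATAAggaaatagaga
Klf1: gctgtcttcccTGATAAgacccaggcaa
Ermap: ctgcccaccccTGATAAagcgagcgttc
They lie at chr11:32283478-32283505 and chr11:32296295-32296322 on the plus strand, chr7:103828122-103828149 on the minus strand, chr2:121037087-121037114 on the plus strand, chr8:84901891-84901918 on the minus strand and chr4:119190046-119190073 on the plus strand, in the order printed. All 6 windows are outside the listed gene bounds on the 5′ side, by 6 to 167 bases. The alpha copies share the whole window, and the matches of *Epb42*, *Klf1* and *Ermap* are on the strand opposite to their gene. The CACCC box form CCACACCC, the kind of site that KLF1 binds, was found in 1 member, *Hbb-bs*, and in 3.20% of all promoters, and it does not overlap the GATA match there. A match of letters is a description of the sequence and no evidence of binding.

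*Xist* was read first, as the targeted gene. The library labelled RepB-/- replicate 2 held 4 *Xist* counts, whereas the other RepB-/- libraries held 14704 (replicate 1) and 22681 (replicate 3) and the WT libraries 14494 (replicate 1), 21594 (replicate 2) and 26345 (replicate 3). Gene counts cannot show whether repeat B is present. Y-linked *Ddx3y*, *Eif2s3y*, *Kdm5d* and *Uty* summed to 4342 counts in that same library and to at most 1 in any other liver library. This is the pattern of a male liver, and a male has 1 X chromosome and cannot be homozygous for the deletion. The library keeps its label below, so each replicate 2 fold and each count over the 3 pairs includes it. Fits of the members are also given without it. Liver depth was 37682201 to 51542709 counts per library, and *Alb*, the albumin gene that defines hepatocytes, had 3672608 to 5749483 of them. Both replicate 1 libraries stood apart from the other 4. *Afp*, the fetal counterpart of albumin, had 25654 and 16536 counts in RepB-/- and WT replicate 1 and 132 to 234 in the others, and *H19*, an imprinted RNA of fetal tissue, had 196483 and 158730 against 22 to 427. Stage, batch and animal cannot be told apart as the source of this split, and it runs across both genotypes. Levels below are CPM, counts scaled to the size of the library, after TMM scaling of library sizes, and levels of different genes are set side by side only as TPM, which the deposited table also corrects for transcript length.

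The adult globins carried the highest levels of the 9 genes in every library. In RepB-/- replicate 1 the TPM values were 4089 for *Hba-a1*, 3781 for *Hbb-bs*, 2806 for *Hba-a2* and 1393 for *Hbb-bt*, followed by *Tfrc* at 82.3, *Slc4a1* at 22.8, *Klf1* at 8.83, *Epb42* at 3.29 and *Ermap* at 2.66. In WT replicate 3 *Hbb-bs* was at 212 TPM, *Hba-a1* at 160, *Hba-a2* at 140 and *Hbb-bt* at 61.3, with *Tfrc* at 25.0, *Klf1* at 2.02 and *Slc4a1*, *Ermap* and *Epb42* at or under 0.0313. *Slc4a1* thus ranked above *Klf1* in the first of these libraries and below it in the second.

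*Hba-a1* was at 1598, 718 and 466 CPM in RepB-/- replicates 1, 2 and 3 and at 570.3, 94.5 and 65.9 CPM in WT replicates 1, 2 and 3. Every RepB-/- library was above the WT library of the same number, but WT replicate 1 was above RepB-/- replicate 3, so the genotypes overlapped. The RepB-/- level was 2.80 times the WT level in replicate 1, 7.60 times in replicate 2 and 7.07 times in replicate 3. *Hba-a2* followed with 868, 431 and 302 CPM against 317, 58.3 and 45.5 CPM, and its folds were 2.74, 7.40 and 6.64.

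*Hbb-bs*, the major beta globin of the reference strain, was at 1322, 705 and 431 CPM in RepB-/- and at 498, 103 and 77.2 CPM in WT. *Hbb-bt* was at 547, 251 and 150 CPM in RepB-/- and at 199, 35.0 and 25.4 CPM in WT. All 4 adult globins thus put the 6 libraries in the same order, with RepB-/- replicate 1 highest and WT replicate 3 lowest. The fold of RepB-/- over WT was 2.66 and 2.75 in replicate 1 for *Hbb-bs* and *Hbb-bt*, and 5.58 to 7.18 in replicates 2 and 3. For each globin the fold in replicate 1 was the smallest of the 3. Together the 4 globins took 0.467%, 0.206% and 0.107% of all liver counts in RepB-/- and 0.188%, 0.0286% and 0.0219% in WT.

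The balance between globin gene copies, and between alpha and beta chains, moved far less than their level. How reads shared by 2 copies were counted is not given, so these shares and their tests depend on it. *Hbb-bt* made up 29.3%, 26.3% and 25.8% of beta globin counts in RepB-/- replicates 1, 2 and 3 and 28.6%, 25.3% and 24.7% in WT, with 95% Wilson intervals between 23.5% and 29.6% that cover counting error only. RepB-/- livers averaged 27.1% ± 1.90 (SD, n = 3) and WT livers 26.2% ± 2.06 (SD, n = 3), a difference of 0.897 percentage points (two-sided exact permutation test, p = 0.5, where 0.1 is the smallest p that 3 against 3 allows). Both replicate 1 libraries had the highest share. Within replicates 1, 2 and 3 the share was 0.725, 0.941 and 1.02 points higher in RepB-/- (two-sided exact sign-flip permutation test over the pairs, chosen after seeing the data, p = 0.25, the smallest that 3 pairs allow). *Hba-a1* took 59.2% to 64.8% of alpha counts and alpha chains took 52.1% to 57.0% of all adult globin counts, and both of these shares were also higher in RepB-/- in 3 of 3 pairs.

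*Slc4a1*, the membrane gene that led to this set, had counts of 2910, 74 and 76 in RepB-/- and of 123, 2 and 4 in WT, for replicates 1, 2 and 3 in turn. In CPM these are 57.5, 1.47 and 2.22 against 2.74, 0.0517 and 0.0845. RepB-/- was higher within each number, yet WT replicate 1 was above RepB-/- replicates 2 and 3. The RepB-/- level was 20.9 times that of WT in replicate 1 (95% counting interval 17.5 to 25.3), 28.4 times in replicate 2 (7.60 to 239) and 26.2 times in replicate 3 (9.84 to 98.7). The replicate 1 libraries took no part in the choice of *Slc4a1*, but they are 1 library against 1 and give no replicate check. The step from replicates 2 and 3 to replicate 1 was of similar size, 31.2 times in RepB-/- and 40.3 times in WT. Within a number RepB-/- was above WT by a factor of 20 or more, and so was replicate 1 above replicates 2 and 3 within a genotype. Across numbers the genotypes overlapped.

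*Slc4a1* also differed relative to globin within a library. It had 133, 6.98 and 16.4 counts per 10000 adult globin counts in RepB-/- replicates 1, 2 and 3, and 17.3, 1.78 and 3.95 in WT. The RepB-/- ratio was 7.65 times the WT ratio in replicate 1 (95% counting interval 6.39 to 9.24), 3.93 times in replicate 2 (1.05 to 33.1) and 4.16 times in replicate 3 (1.56 to 15.7). This measure needs no library scaling, though it rests on 2 and 4 counts of *Slc4a1* in WT replicates 2 and 3. In bulk liver a larger number of erythroid cells, more RNA per cell and a different mix of stages cannot be told apart.

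*Epb42* had 231, 8 and 5 counts in RepB-/- and 4, 0 and 0 in WT, and was the 1 member in which every RepB-/- library was above every WT library. That order held for 3.38% of the 16080 genes tested in liver. In replicate 1 the fold was 51.1 (counting interval 19.7 to 189). Against a floor of 3 counts per library, *Epb42* was at least 2.05-fold higher in RepB-/- replicate 2 and at least 2.30-fold higher in replicate 3. It was too low for the filter on counts, so 8 of the 9 members entered the fit.

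*Ermap* had 288, 18 and 12 counts in RepB-/- and 17, 0 and 3 in WT. The fold was 15 in replicate 1 (counting interval 9.20 to 26.1) and 5.52 in replicate 3 (1.49 to 30.5), and *Ermap* was at least 4.61-fold higher in RepB-/- replicate 2. WT replicate 1 was a little above both RepB-/- replicates 2 and 3 in CPM, at 0.379 against 0.357 and 0.350. The 3 membrane genes thus shared an order in which RepB-/- replicate 1 was highest by over 10-fold.

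*Klf1* had another pattern. It was at 7.58, 1.81 and 3.73 CPM in RepB-/- and at 1.41, 2.89 and 1.84 CPM in WT. RepB-/- was 5.40 times WT in replicate 1 (counting interval 4.12 to 7.16) and 2.03 times in replicate 3, but 0.625 times in replicate 2 (0.468 to 0.831). WT replicate 1 was the lowest of the 6 libraries for *Klf1*, whereas for the globins and *Slc4a1* it was the highest WT library.

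*Tfrc*, the member with the smallest log2 fold change in the fit of all 6 libraries given below, was at 173, 75.5 and 79.9 CPM in RepB-/- and at 115, 59.8 and 47.8 CPM in WT, with folds of 1.50, 1.26 and 1.67 in replicates 1, 2 and 3. Both replicate 1 libraries were above the other 4, as they were for *Slc4a1* and *Ermap*. That order was found in 3 of 9 members and in 23.0% of all genes tested.

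**Figure D1:**
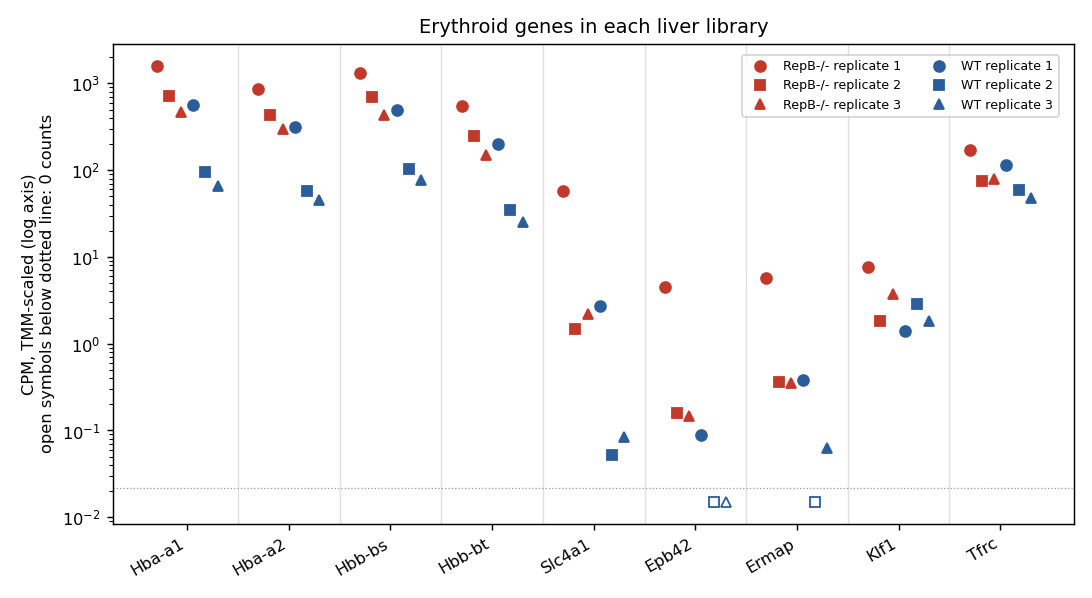
Level of each erythroid gene in the 6 liver libraries, in TMM-scaled CPM on a log axis, with RepB-/- in red, WT in blue and the replicate number as the symbol. RepB-/- replicate 1 is highest for all 9 genes, and WT replicate 1 lies among or near the RepB-/- libraries for the globins, *Slc4a1* and *Ermap*.

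Over the set, RepB-/- was above WT in all 3 replicate numbers in 8 of 9 members, against 15.4% of all genes tested, and *Klf1* was the exception. RepB-/- replicates 2 and 3 were above both WT libraries of those numbers in the same 8 members, against 21.2% of all genes. That last order is the one that chose the set. RepB-/- replicate 1 was the highest library in all 9 members, against 21.3% of all genes.

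**Figure D2:**
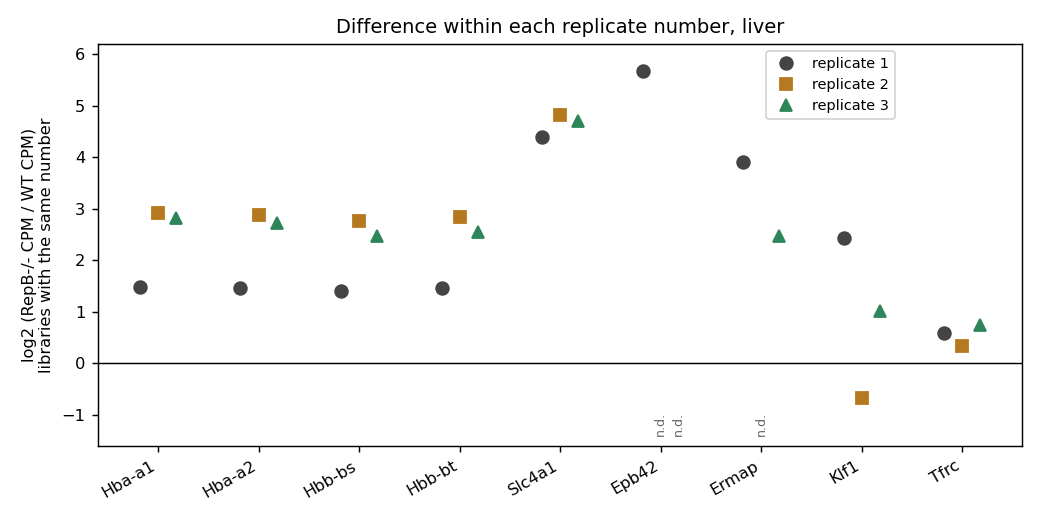
log2 ratio of RepB-/- to WT CPM between liver libraries with the same replicate number, for each erythroid gene, where n.d. marks a WT library at 0 counts. The globins lie at 1.41 to 1.49 in replicate 1 and at 2.48 to 2.93 in replicates 2 and 3, *Slc4a1* at 4.39 to 4.83 in all 3, and *Klf1* falls on both sides of 0.

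Fitted over all 6 libraries with edgeR, the log2 fold change of RepB-/- over WT was 4.40 (SE 1.99) for *Slc4a1*, 3.82 (SE 1.63) for *Ermap* and 1.10 (SE 0.59) for *Klf1*. The globins lay between 1.86 (SE 0.82) and 1.93 (SE 0.93), and *Tfrc* at 0.56 (SE 0.46). At an adjusted p under 0.05 the quasi-likelihood test called 0 of the 8 members, where 0.0373% of the 16080 genes were called, and 0 of the 8 had an unadjusted p under 0.05, as 502 of the 16080 genes had. DESeq2 called 0 of the 6 members to which it gave an adjusted p, which left out *Slc4a1*, and 80 of 18811 genes. Of the 6, the 4 globins had an unadjusted p under 0.05, as 793 of all genes had. Without the library labelled RepB-/- replicate 2, the edgeR fit put *Slc4a1* at 4.95, *Ermap* at 4.32, *Klf1* at 1.46 and *Tfrc* at 0.76. The globins were then at 1.955 (*Hbb-bs*) to 2.083 (*Hba-a1*), and 0 members were called.

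Taking replicate number into the fit narrowed the errors. With the number as a block, *Slc4a1* was at 4.51 (SE 0.26) and was the 1 member of 8 called, where 0.0498% of genes were called. With a single term for replicate 1 against replicates 2 and 3 it was at 4.50 (SE 0.29) and again the 1 member called, at a background of 0.056%. With that term and without the library labelled RepB-/- replicate 2, an alternative chosen after seeing the data, it was at 4.58 (SE 0.26) and called, at 0.0179%. *Slc4a1* was chosen by its values in replicates 2 and 3, which these fits use in whole or in part. Its calls are therefore no test. In the term's fit the globins were at 2.25 (SE 0.37) to 2.43 (SE 0.39) and were not called. In the 4 libraries numbered 2 and 3 alone, *Slc4a1* was at 4.68 (SE 0.61), the globins were at 2.66 (SE 0.35) to 2.89 (SE 0.35), *Tfrc* was at 0.53 (SE 0.21) and *Klf1* at 0.22 (SE 0.49). That fit called 0 of 8 members, at a background of 0.0125%, and 6 of the 8 had an unadjusted p under 0.05, as 1582 of the 16019 genes tested there had.

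Other erythroid genes were counted in lists by role. Of 15 membrane and skeleton genes, 9 could be tested and 0 were called, with 2 at an unadjusted p under 0.05 and a median log2 fold change of 1.76, beside 0.012 over all genes. In replicate 1, 14 of the 15 were higher in RepB-/-, while in replicates 2 and 3 the counts were 8 and 9, where 52.5%, 50.4% and 49.4% of all genes tested were higher in replicates 1, 2 and 3. *Ank1*, the ankyrin that ties band 3 to spectrin, had 315, 21 and 20 counts in RepB-/- and 15, 0 and 0 in WT. Every RepB-/- library was above every WT library, an order found in 3.38% of all genes tested. *Sptb*, erythroid beta spectrin, was at 18.9, 1.55 and 4.37 CPM against 5.93, 0.413 and 0.993. The 3 other highest genes of the list are not particular to red cells. *Epb41* was at 40.9, 86.7 and 124 CPM against 34.0, 71.5 and 104, *Gypc* at 12.2, 8.36 and 15.6 against 7.79, 22.7 and 15.8, and *Xk* at 4.03, 6.26 and 9.74 against 5.35, 8.37 and 6.34. *Rhag*, *Rhd* and *Cldn13*, which had 228, 186 and 140 counts in RepB-/- replicate 1, had 0 in RepB-/- replicates 2 and 3.

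Of 13 erythroid regulators in the table, 11 could be tested, 0 were called and 0 had an unadjusted p under 0.05. The median log2 fold change of these 11 was 1.05 over all 6 libraries. Replicates 2 and 3 alone allowed 7 regulators to be tested, with a median of -0.22, so the medians are over different genes. All 13 were higher in RepB-/- in replicate 1, against 7 and 6 in replicates 2 and 3. The shares over all genes tested were 52.5%, 50.4% and 49.4% in replicates 1, 2 and 3. *Gata1* had 371, 10 and 0 counts in RepB-/- and 10, 0 and 6 in WT, and *Gfi1b*, a repressor of the lineage, had 181, 10 and 4 against 2, 0 and 0. *Ldb1*, which bridges GATA1 complexes, was at 44.8, 39.6 and 37.9 CPM against 43.1, 25.2 and 23.7, and *Zfpm1*, the GATA1 cofactor FOG1, at 32.8, 31.6 and 25.2 against 21.5, 54.6 and 46.0. *Sox6* was at 8.21 to 14.1 CPM over all libraries, and *Lmo2* at 10.9, 6.99 and 5.07 against 8.70, 7.57 and 6.51.

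The 12 late maturation genes, of which 10 were tested, had 0 calls, 1 unadjusted p under 0.05 and a median of 0.36. *Car2*, carbonic anhydrase 2, was at 60.7, 15.3 and 13.7 CPM against 36.9, 9.30 and 9.04, higher in RepB-/- within each number. *Bpgm*, which makes the allosteric regulator of hemoglobin, was at 30.5, 26.0 and 21.7 CPM against 21.3, 17.6 and 20.4. *Xpo7* was at 36.6 to 61.3 CPM and *Bnip3l* at 34.2 to 58.1 CPM over all libraries, with RepB-/- below WT in replicate 3 for both. *Hbq1b*, a theta globin, had 56, 0 and 1 counts against 4, 2 and 0, and *Hbq1a* had 6 counts, all in RepB-/- replicate 1. The embryonic globins *Hbb-y*, *Hbb-bh1*, *Hbb-bh2* and *Hba-x* had 0 counts in all 6 libraries, and 3 counts of the smallest liver library is the limit that a count of 0 allows.

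Of the 14 genes of heme synthesis and iron supply, all were tested, 0 were called, 1 had an unadjusted p under 0.05, and the median was 0.051. *Alas2*, the erythroid enzyme that starts heme synthesis, was at 92.2, 139 and 37.9 CPM in RepB-/- and at 36.4, 17.9 and 42.3 CPM in WT, so that replicate 3 went the other way. *Fech*, which inserts iron into heme, was at 138, 166 and 188 CPM against 121, 122 and 111. The genotypes did not overlap, with RepB-/- above WT, as in 3.38% of all genes tested. *Alad* was at 220.4 to 251 CPM, *Cpox* at 114 to 188 CPM and *Glrx5* at 52.6 to 84.3 CPM over all libraries.

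Hepcidin showed the widest difference among the iron genes. *Hamp* had 873, 0 and 0 counts in RepB-/- replicates 1, 2 and 3 and 1029, 7013 and 23849 in WT. Against a floor of 3 counts per library it was at least 3041-fold lower in the library labelled RepB-/- replicate 2 and at least 5758-fold lower in replicate 3, whereas in replicate 1 the RepB-/- level was 0.751 times WT. *Hamp2*, a neighbouring gene of the same family, had 382, 4 and 4 counts in RepB-/- and 45, 3002 and 4520 in WT, so that RepB-/- was 7.51 times WT in replicate 1 (5.51 to 10.5) while WT was 976 times RepB-/- in replicate 2 (95% counting interval 381 to 3585) and 818 times in replicate 3 (319 to 3005). How reads were split between such related genes is not given in the sources used here.

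Across the 12 iron regulation genes, the fit of all 6 libraries called 0, with 0 at an unadjusted p under 0.05. The median log2 fold change was -0.16, and 2 of the 12 were above 0, beside 51.6% of all genes. The fit of replicates 2 and 3 alone called 1, *Hamp2*, where 0.0125% of all genes tested were called. *Hamp2* was at -9.78 (SE 0.34). This SE is narrower than counting error alone on 8 RepB-/- and 7522 WT counts. The counting interval of WT over RepB-/- for these sums was 469 to 2143. *Tfr2*, the hepatocyte receptor for transferrin, was at 238, 422 and 317 CPM against 225, 273 and 292, and *Hjv*, the BMP coreceptor that drives hepcidin, at 34.4, 70.1 and 48.2 CPM against 38.9, 100.2 and 103. *Bmp6*, its ligand, had 52, 91 and 14 counts against 76, 129 and 112. *Fth1*, ferritin heavy chain, was at 1262, 1931 and 2497 CPM against 1325, 1782 and 1868, and *Ftl1*, the light chain, at 476, 1387 and 486 CPM against 451, 1428 and 1382. *Trf*, transferrin itself, was at 27322, 17133 and 12952 CPM against 26816, 17142 and 15714.

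**Figure D3:**
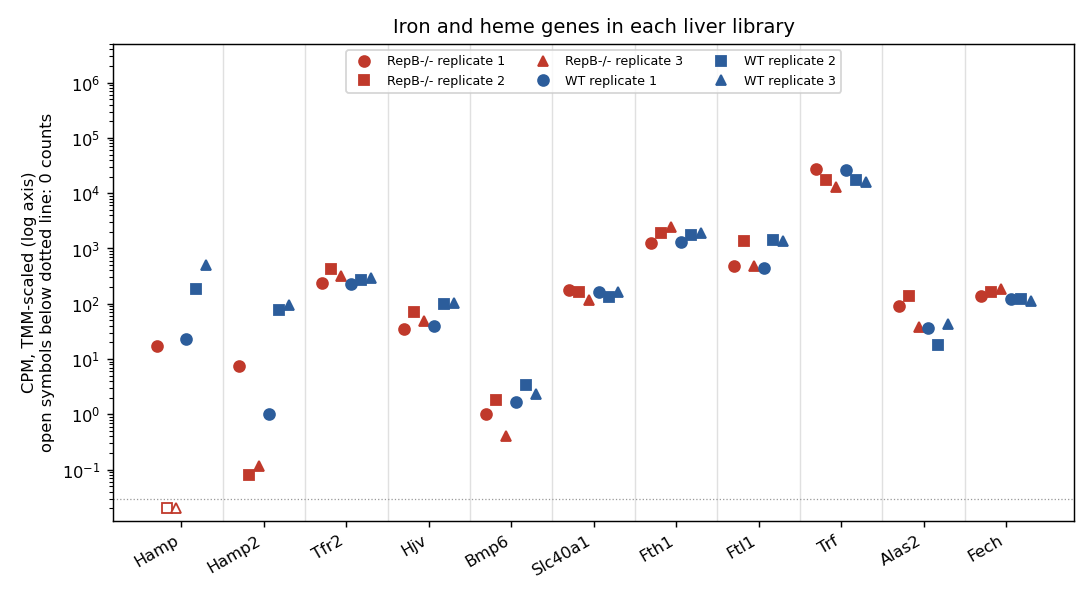
Iron and heme genes in the 6 liver libraries, in TMM-scaled CPM on a log axis, with open symbols for 0 counts. *Hamp* and *Hamp2* are near or at 0 in RepB-/- replicates 2 and 3 and at 77.5 to 504 CPM in WT replicates 2 and 3, while *Slc40a1*, *Fth1* and *Trf* overlap between the genotypes.

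Markers of other blood cells moved with the erythroid genes in replicate 1. The 9 granulocyte markers summed to 683 CPM in RepB-/- replicate 1 and 63.3 CPM in WT replicate 1, against 5.63 to 16.3 CPM in the other 4 libraries. All 9 were higher in RepB-/- replicate 1 than in WT replicate 1, where 52.5% of all genes tested were higher. The 10 megakaryocyte and platelet markers summed to 189 and 18.3 CPM in replicate 1 and to 4.61 to 7.11 CPM in the others, and the 6 B cell markers to 57.3 and 12.2 CPM against 3.05 to 3.76 CPM. The 10 macrophage markers went the other way in replicate 1, at 367 CPM in RepB-/- and 962 CPM in WT, with all 10 lower in RepB-/-. In replicates 2 and 3 the macrophage sums were higher in RepB-/-, at 472 against 396 CPM and 504 against 436 CPM. Of the 10 markers, 7 and 5 were higher, where 50.4% and 49.4% of all genes tested were. In the fit of those libraries the list had 0 calls, at a background of 0.0125%, and a median log2 fold change of 0.66. An unadjusted p under 0.05 was found for 4 of 10, as for 1582 of the 16019 genes. Among these 4, *Cd163* was lower in RepB-/-, at -1.27. The part of other cell types in the differences of the erythroid genes was not tested. In replicate 3 the granulocyte sums were 7.23 CPM in RepB-/- and 7.31 CPM in WT, with 4 of 9 markers higher and 4 lower. The platelet sums were 4.61 and 4.90 CPM and the B cell sums 3.27 and 3.76 CPM. In replicate 2 the granulocyte sum was 2.89 times and the platelet sum 1.46 times that of WT.

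**Figure D4:**
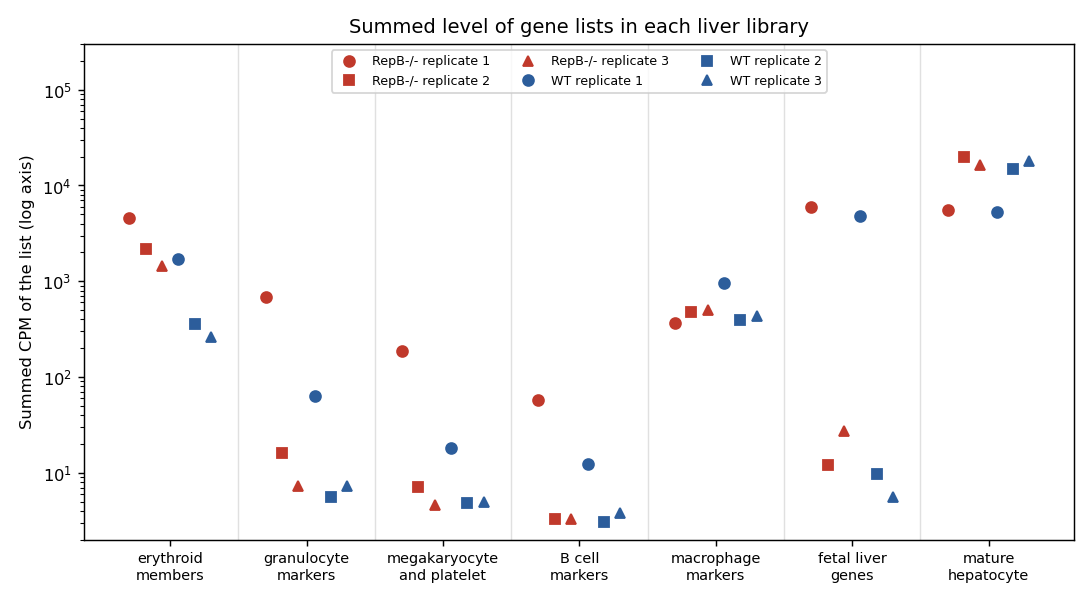
Summed CPM of the 9 erythroid genes and of 6 marker lists in each liver library, on a log axis. The fetal liver genes separate replicate 1 from replicates 2 and 3 in both genotypes. Their sum is also higher in RepB-/- in replicates 2 and 3, at 1.24 and 4.83 times WT, with 2 and 4 of 8 genes higher. The erythroid sum in replicates 2 and 3 is 5.44 to 6.18 times higher in RepB-/-. The B cell sums there lie between 3.05 and 3.76 CPM.

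Outside the 9 members and the lists, protein-coding genes whose log2 CPM most resembled that of *Slc4a1* included *Klf2*, *E2f2*, *Robo2*, *Pcolce*, *Cxx1a*, *Smad3*, *Tcaf1*, *Cnrip1* and *Zfp521*, with Pearson correlations of 0.987 to 0.994 over the 6 libraries, out of 12270 candidates. These are a description, since 6 libraries that share a replicate split give high values to many genes. Among the members the correlation with *Slc4a1* was 0.983 for *Ermap*, 0.937 to 0.947 for the globins and *Tfrc*, and 0.589 for *Klf1*. *Klf2*, a relative of *Klf1*, was at 44.1, 15.8 and 18.3 CPM in RepB-/- and at 22.7, 7.75 and 8.98 CPM in WT.

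MEFs took no part in the choice of the members and give the 1 test open to them. *Tfrc* was the only member that passed the filter on counts in MEFs, and the other 8 had at most 12 counts in any library. *Tfrc* was at 84.9, 101 and 106 CPM in RepB-/- replicates 1, 2 and 3 and at 69.0, 72.2 and 81.0 CPM in WT. It was higher in RepB-/- MEFs (97.2 ± 10.9 against 74.1 ± 6.17 CPM, SD, n = 3 each), with no overlap, an order that 26.4% of genes tested in MEFs showed, and a log2 fold change of 0.39 (SE 0.092, edgeR quasi-likelihood test with Benjamini-Hochberg adjustment, adjusted p = 0.0046). Of the 13306 genes tested in MEFs, 19.4% were called higher in RepB-/- and 39.1% were called in either direction, so such a call is common there. Of 13 tested genes of heme synthesis and iron supply, 5 were called higher and 0 lower, and *Steap3*, the endosomal iron reductase, was at 111, 107 and 98.8 CPM against 59.7, 64.2 and 61.5. In the other lists the calls were 1 higher and 4 lower of 8 membrane and skeleton genes, 0 and 3 of 5 regulators, 2 and 5 of 10 late maturation genes, and 2 and 1 of 9 iron regulation genes. The levels of the tissues were scaled separately and are not compared with each other.

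**Figure D5:**
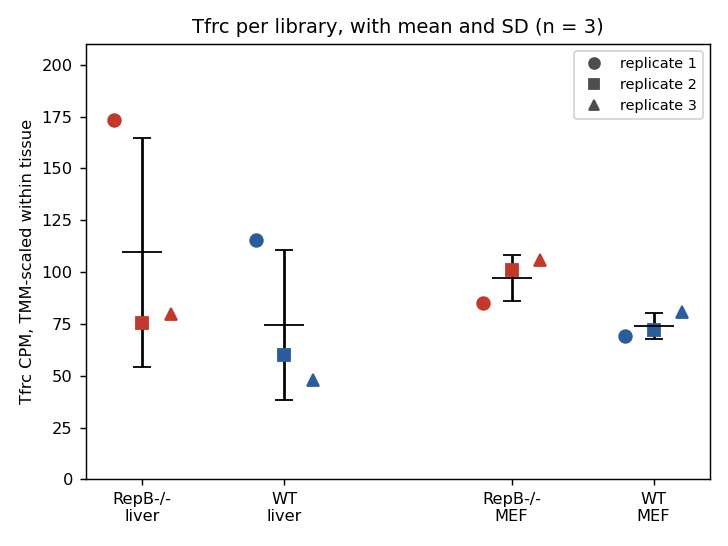
*Tfrc* in TMM-scaled CPM in liver and MEF libraries, with points for libraries, a bar for the mean and whiskers for the SD of 3 libraries. In MEFs the RepB-/- libraries, at 84.9 to 106 CPM, lie above the WT libraries, at 69.0 to 81.0 CPM, and in liver the genotypes overlap.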

How the data were processed

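The authors deposited whole-number read counts per gene for liver and MEFs, without normalization, and for liver also TPM. The study's methods name Cutadapt and Hisat2 for RNA of MEFs, and the submitters' processing notes also list Trim Galore 0.4.1, STAR 2.7.0 and HTSeq 0.12.4 with no role. The counting tool and the handling of reads that match several genes are not given in the sources used here. Liver positions are on GRCm38 and match GENCODE vM21. The 12 FPKM columns were not used, and the 6 brain samples were not analysed here. Titles with B were read as RepB-/- and with W as WT.

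Each tissue was fitted with edgeR 4.0.16 in R 4.3.3 (TMM, filterByExpr, quasi-likelihood test, Benjamini-Hochberg adjustment, threshold 0.05) on the counts. The SE beside a log2 fold change is its size divided by the square root of the F statistic of that test. It is an approximate error, not one that the fit estimated. DESeq2 1.42.0, its size factors in edgeR, no filter, library sizes without globins and members, replicate number as a block, a replicate 1 term, replicates 2 and 3 alone and leaving out each library were the alternatives. Deviations from the genotype mean correlated between liver libraries with the same number (0.71, 0.36 and 0.37). The replicate 1 split alone makes such values positive, and libraries with unlike numbers were not compared. That the numbers pair the libraries was therefore assumed, and the folds within a number, the block and the sign-flip test rest on it. Correlations with *Slc4a1* used log2 CPM with a prior count of 2. Depth per MEF library was 20005541 to 20587556 counts in RepB-/- and 11540344 to 16347806 counts in WT, so depth differed with genotype there. Counting intervals beside ratios are exact 95% intervals and cover counting error only. Python 3.11.15 and scipy 1.17.1 made the tables.

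The members, lists and tests were chosen with earlier results of these data known. All members were named, with, from each pathway list, genes called and the 4 highest by mean CPM over the 6 liver libraries, and the 10 genes outside the lists most correlated with *Slc4a1*. *Ank1*, *Rhag*, *Rhd*, *Cldn13*, *Gata1*, *Gfi1b*, *Alas2*, *Hamp*, *Hjv*, *Bmp6* and *Steap3* were named after their values were seen. *Hjv* is listed under its older symbol. Some genes that this choice would name are not reported here. Sequences are from RefSeq and GENCODE.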

Additional observations from a re-analysis of the deposited data

Results flagged for a closer look

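*Ank1*, *Bpgm* and *Tspan33* had opposite orders of the genotypes in the 2 tissues, with every RepB-/- library above every WT library in liver and below every WT library in MEFs. They were flagged for this order. In liver, 3.38% of the 16080 genes tested had every RepB-/- library above every WT library. In MEFs that order held for 26.4% of 13306 genes, and the share with the order below was not counted. The log2 fold of mean CPM in liver minus that in MEFs was 4.90 for *Ank1*, 0.944 for *Bpgm* and 2.32 for *Tspan33*. *Ank1* was 21.6 times WT in liver and 0.725 times in MEFs. *Bpgm* was 1.32 times WT in liver and 0.684 times in MEFs, and *Tspan33* 1.65 times and 0.329 times. The difference between the tissues was not tested, and *Ank1* in liver rests on 15 counts over the WT libraries.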

How the results depend on the processing

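*Slc4a1* kept the direction that chose it in all 13 alternatives that gave a value. Its log2 fold changes were 0.94 to 8.15, both from leaving out a replicate 1 library (0.94 without RepB-/- replicate 1, 8.15 without WT replicate 1). The globins, *Ermap*, *Klf1* and *Tfrc* kept theirs too. The 8 members had 1 call with the replicate block, with the replicate 1 term, and with that term and RepB-/- replicate 2 left out, and 0 in the other alternatives. The 6 genes called in liver became 80 with DESeq2, 0 with no filter, 2 in replicates 2 and 3 alone, 3 with the replicate 1 term without RepB-/- replicate 2, 8 with the block, and 0 to 4 when a library was left out. Genes of the 6 erythroid and iron lists had 1 call in replicates 2 and 3 alone and 0 otherwise. The median log2 difference of the 9 members in replicates 2 and 3 was 2.63, and 2.33 to 2.98 when 1 library was left out. The *Hbb-bt* share difference ran from -0.193 to 2.07 points when 1 library was left out, which leaves the pairs unequal, and was 0.982 in replicates 2 and 3 alone. In MEFs the block gave 5006 calls against 5202 and *Tfrc* stayed called, as in every alternative, and without WT replicate 2 there were 2 members called, the other being *Ermap*. MEF numbers did not pair the libraries (correlations -0.042 to -0.0035). The causes were not tested.

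Counts under about 10 in WT replicates 2 and 3 limit the folds of *Slc4a1*, *Epb42* and *Ermap*. With 3 libraries per genotype, 1 of them carrying Y-linked counts and a pair standing apart by replicate number, liver changes in single genes were poorly resolved, and the biological coefficient of variation was 51.2%, against 33.7% with the block and 32.7% with the replicate 1 term.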
